A study of Homo sapiens with 8 samples.

Results

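The 9 genes described here are the bone morphogenetic protein (BMP) ligands BMP2, BMP4 and BMP7, the feedback inhibitors BAMBI and SMAD6, and the inhibitor of differentiation genes ID1, ID2, ID3 and ID4. They were chosen by name, out of 20007 annotated protein-coding genes, and every H3K27ac peak in each gene body and 50 kb on either side was taken from every library. These windows held 40 and 39 peaks in the DMSO libraries (replicates 1 and 2) and 33 and 31 peaks in the I-BET151 libraries. Peaks sharing at least 1 bp were merged, which gave 43 regions at the 9 loci out of 15752 in the series.

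BMP ligands bind paired serine/threonine kinase receptors, which phosphorylate SMAD1, SMAD5 and SMAD9, and these enter the nucleus together with SMAD4. BAMBI, a receptor-like membrane protein without a kinase, and SMAD6, an inhibitory SMAD, dampen the pathway and are themselves among its targets. ID proteins are helix-loop-helix proteins without a DNA-binding region that hold E proteins away from DNA, and their genes are well-known direct BMP targets. In the foregut endoderm BMP signals favour liver over pancreas, and BMP inhibitors are common in pancreatic differentiation protocols.

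Acetylation of lysine 27 on histone H3, a mark of active promoters and enhancers, was profiled by ChIP-seq in pancreatic progenitors (PPs) derived from MEL1, a line of human embryonic stem cells that the study's methods name as MEL1 INS GFP/W, with a GFP reporter at the insulin gene. All PPs were kept in EF6, a DMEM and B27 medium with EGF, bFGF and the TGFβ receptor inhibitor 616452. They received DMSO or 1 μM I-BET151, a BET bromodomain inhibitor. I-BET151 was given for 7 days, and the sample labels state no time for DMSO. Each group had 2 H3K27ac libraries and 2 inputs. All samples came from a single cell line, and no label says whether replicates were separate cultures, so that a p-value here measures only the spread between these libraries, which may be technical. With 2 libraries per group the two-sided exact permutation test cannot give a p below 0.33, so no difference reported here could pass a threshold of 0.05. Values are therefore called lower or higher where both I-BET151 libraries lay outside both DMSO libraries.

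The lists held 12312 to 14248 peaks. Depth was 7.76 to 9.84 M ChIP reads and 2.67 to 3.04 M input reads, as estimated from the peak values with an assumed genome size and fragment length. Defining genes of PPs were acetylated: PDX1, NKX6-1, SOX9, ONECUT1, FOXA2, GATA6 and MNX1 had a peak within 3 kb of a start in all 4 libraries. The endocrine genes NEUROG3, NEUROD1, CHGA and INS, the pluripotency genes POU5F1, NANOG and SOX2, and the hepatic genes ALB and AFP had none, nor did COL1A1, COL1A2, PDGFRA and PTPRC. The intestinal gene CDX2 and the mesenchymal gene VIM had a peak in all 4. A mixture of cells cannot be told apart from a like change in every cell in such bulk chromatin, and a missing peak means only that none passed the threshold of the authors' peak caller.

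The DNA of the merged regions is shown first for the ID genes, because all 4 loci held the same letters. The response element described at ID1 joins GGCGCC to GTCT 5 bases further on, and this 15-base arrangement was searched on both strands over the whole length of every merged region. It occurred in 6 of the 22 regions of the ID windows (27.3%) and in 79 of all 15752 regions (0.502%). The ID regions thus held 33.0 matches per 100 kb of sequence, against 0.681 per 100 kb over all regions. Among regions of 517.25 to 1225.25 bp, the middle of the width range of the ID regions, 2 of 10 ID regions and 28 of 7303 regions in all (0.383%) held it. ID1 and ID2 had 1 match each, and ID3 and ID4 had 2 each, so that each ID gene had at least 1. The 300 bases centred on each summit had been searched before the whole regions. In that search only the ID3 region 1.03 kb downstream of the start held the arrangement among the ID regions, beside 34 of all 15752 regions (0.216%). The other matches at the ID genes thus lay outside the summit windows. None of the 21 regions at BMP2, BMP4, BAMBI and SMAD6 held it. GGCGCC alone was common, in 17 of 22 ID regions, 9 of these 21 regions and 52.5% of all regions. No test was made, since the ID genes were chosen as BMP targets. The 6 stretches of 30 bases follow in hg38, 5′ to 3′ on the strand of the match, with GGCGCC and GTCT in capitals.
ID1, chr20:31608627-31608656, plus strand: gtacggaGGCGCCtggctGTCTggggcccg
ID2, chr2:8678935-8678964, plus strand: cgcgcctGGCGCCagagaGTCTgctccggg
ID3, chr1:23554903-23554932, minus strand: gttcgctGGCGCCcggatGTCTgagctctg
ID3, chr1:23558480-23558509, minus strand: cctccctGGCGCCggccaGTCTgcggacgg
ID4, chr6:19804839-19804868, plus strand: cgcagccGGCGCCaggcaGTCTgggcggcc
ID4, chr6:19839141-19839170, plus strand: ggtcggtGGCGCCagttaGTCTgcagcgag

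The positions of these matches varied. Measured from the canonical start to the middle of the match, they lay 3352 bp downstream at ID1, in intergenic sequence, and 3107 bp upstream at ID2, in an untranslated exon of a longer ID2 transcript. At ID3 they lay 1006 bp downstream, in an exon of a noncoding transcript, and 4583 bp downstream, beyond the end of the gene. At ID4 they lay 1785 bp downstream, in an intron, and 32517 bp upstream, within the noncoding gene LNC-LBCS. The ID1 regions over the start and 1.14 kb upstream of it held no match. Whether the downstream ID1 match is the element described at that gene was not examined. All 6 regions holding a match were called in all 4 libraries, as were 68 of the 79 such regions in the series. The match itself lay wholly inside a peak of every library for 3 of the 6, at ID2 and ID3. The ID1 match lay beyond the peak of I-BET151 replicate 1 and across the edge of that of DMSO replicate 1. The downstream ID4 match lay beyond the peak of I-BET151 replicate 2 and across the edge of that of I-BET151 replicate 1, and the upstream ID4 match lay outside the peak of DMSO replicate 2. Near the starts the pair of motifs was rare: in the RefSeq windows from 250 bases before to 50 after the start (GRCh38.p14), which matched 7 of the 9 genes, none held the 15-base arrangement, and 0.130% of protein-coding promoters did. GGCGCC occurred there 3 times at BAMBI and 2 times at BMP4, and was in 25.5% of protein-coding promoters.

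As a whole, less sequence at the 9 loci was covered by H3K27ac peaks after I-BET151 treatment. The summed covered length was 30.1 and 29.2 kb in the DMSO libraries and 25.02 and 23.0 kb in the I-BET151 libraries. The difference, −5.65 kb, exceeded the SD of both groups (0.614 kb for DMSO and 1.45 kb for I-BET151, n = 2 each, exact permutation p = 0.33). BMP4, SMAD6 and ID1 made up 94.3% of it. Of the 8 genes with any peak in the window, 5 were lower (BMP4, BAMBI, SMAD6, ID1 and ID2) and 0 were higher. Across all 15184 protein-coding genes with a peak in the window, 44.4% were lower and 12.5% higher, with a median difference of −0.094 kb. Within 3 kb of the annotated starts, 4 of the 8 genes were lower (BMP4, BAMBI, ID2 and ID4) and 1 was higher (ID3), against 37% lower and 14% higher among 11277 genes. With so few genes, neither count is read as differing from the background.

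**Figure D1:**
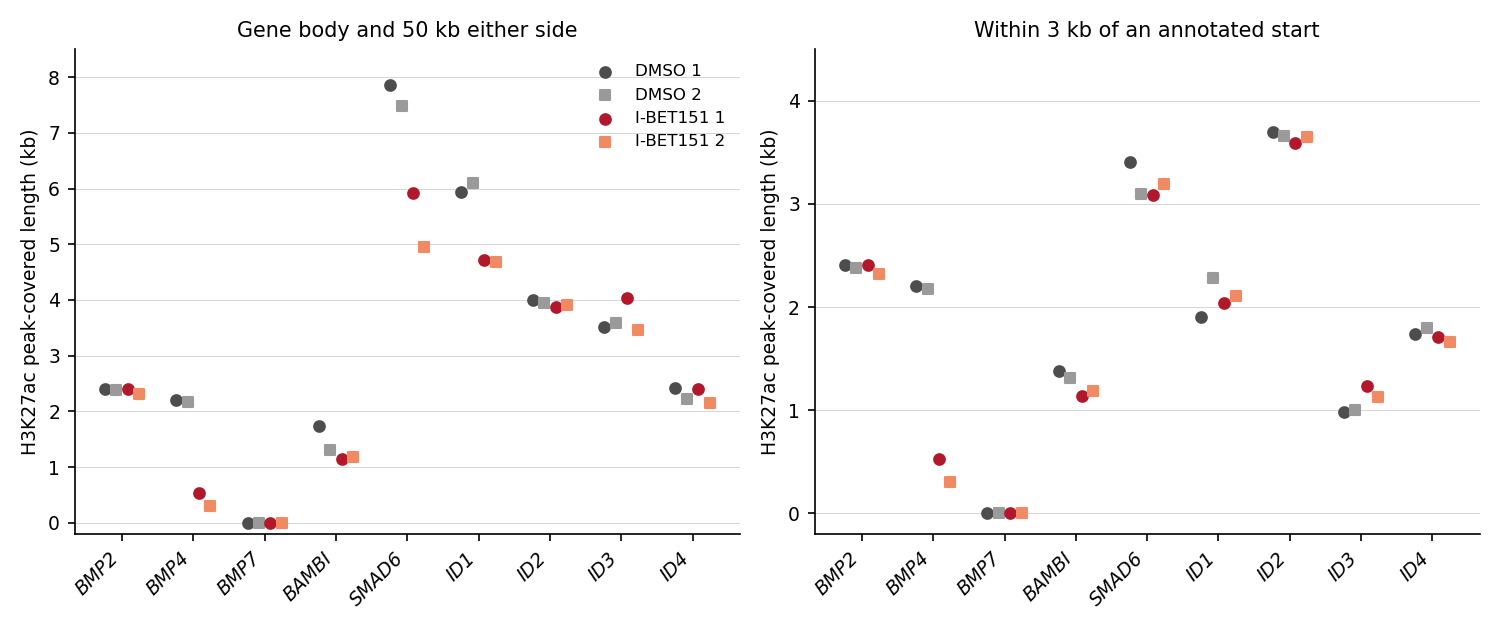
Length covered by H3K27ac peaks (kb) at the 9 genes in each of the 4 libraries, over the gene body and 50 kb either side (left) and within 3 kb of an annotated start (right), each point being 1 library. BMP4 lies at 2.2 and 2.17 kb for DMSO and at 0.526 and 0.301 kb for I-BET151 in both panels, whereas SMAD6 and ID1 are separated only on the left.

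Among the ligands, BMP4 had the lowest share of its DMSO covered length of the 8 genes with peaks. BMP4 lies on chromosome 14 at chr14:53949736-53958761, on the minus strand. Its peaks covered 2.2 and 2.17 kb in DMSO but 0.526 and 0.301 kb in I-BET151. Both treated libraries lay far below both controls, at 18.9% of the DMSO mean (2.19 ± 0.0198 kb against 0.413 ± 0.159 kb, SD, n = 2 each, exact permutation p = 0.33). Only 3.64% of the genes with a peak had a more negative difference. The number of peaks was 4 in both DMSO libraries and 1 in both I-BET151 libraries, all within a stretch of a few kb downstream of the canonical start, and no other peak lay in the window. The difference was −1.77 kb with windows of 10 or 100 kb and with the same number of top-ranked peaks in every list.

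Of the 4 acetylated regions at BMP4, 3 were lost, meaning present in the 2 DMSO lists but absent from both I-BET151 lists. The first, chr14:53956496-53956822, starts at the canonical transcription start and covers its untranslated first exon. Its summit height, in ChIP reads per M of the ChIP reads of the library (RPM), was 14.2 and 13.7 RPM in DMSO. The second, chr14:53955651-53956207, lies in the intron behind it, with 13.1 and 12.0 RPM. The third, chr14:53954583-53955281, is also intronic and held 17.8 and 15.96 RPM. All 3 overlap the noncoding gene ENSG00000287156.

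The fourth region, chr14:53953588-53954261, lies 3.07 kb downstream of the canonical start and 302 bp from a start of a shorter BMP4 transcript. It was called in all 4 libraries, with summits of 23.2 and 22.7 RPM in DMSO and 13.8 and 17.5 in I-BET151. Height there was lower in both treated libraries, at 68.3% of the DMSO mean (exact permutation p = 0.33), and its covered length went from 674 and 653 bp to 526 and 301 bp. What a missing peak can mean was set by the input level: with the same local input as in DMSO, the 3 lost regions would have reached the I-BET151 lists at 37.4 to 49.0% of their mean DMSO height. Sequence at the third and the second of them is shown where it is free of untranslated exons, on the strand of the gene, with GGCGCC in capitals. The stretch before the intronic start is RefSeq's promoter sequence without its last 50 bases, and the other is 300 bases of hg38. The first stretch runs past the edge of the third region, its capitals lie across that edge, and the GGCGCC inside the region is in the 50 bases left out.
BMP4 upstream of an intronic start, chr14:53955051-53955300, minus strand: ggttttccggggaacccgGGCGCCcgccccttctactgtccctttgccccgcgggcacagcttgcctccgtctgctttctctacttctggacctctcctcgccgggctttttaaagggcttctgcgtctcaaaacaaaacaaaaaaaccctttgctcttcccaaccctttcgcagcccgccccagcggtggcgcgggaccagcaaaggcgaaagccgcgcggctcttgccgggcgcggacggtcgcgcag
BMP4 around the summit of the second lost region, chr14:53955896-53956195, minus strand: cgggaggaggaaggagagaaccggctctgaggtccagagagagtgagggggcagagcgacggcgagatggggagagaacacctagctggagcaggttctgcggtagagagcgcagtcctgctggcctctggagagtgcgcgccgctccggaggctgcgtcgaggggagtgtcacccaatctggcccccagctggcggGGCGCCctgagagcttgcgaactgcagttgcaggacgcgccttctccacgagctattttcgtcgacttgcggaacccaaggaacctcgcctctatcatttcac

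BMP2, by contrast, had the same 2 regions in every library, at the start and in the coding exon 2.64 kb downstream. Covered length was 2.41 and 2.38 kb in DMSO against 2.41 and 2.32 kb in I-BET151. These groups overlapped (difference −0.033 kb, exact permutation p = 0.67). At the start, chr20:6767356-6769117, the summit height was 38.9 and 36.2 RPM in DMSO against 32.5 and 35.7 in I-BET151. The I-BET151 values were thus both lower, at 90.8% of the DMSO mean, while at the second region the heights overlapped.

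BMP7 had no peak in its window in any library. The nearest peaks lay 84.5 to 84.6 kb upstream of its start and 776 to 777 kb beyond its end. Within 100 kb, BMP7 therefore had 0.533 and 0.464 kb of peaks in DMSO against 0.442 and 0.470 kb in I-BET151, groups that overlapped. Acetylation at BMP7 was not detectable at this depth, which does not show that it was absent.

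The protein-coding genes on other chromosomes with covered lengths most like those of BMP2 were RAB2A, GMEB1 and ZCCHC8, at Euclidean distances of 0.0434, 0.0602 and 0.0664 kb over the 4 libraries. For ID1, which had the highest covered length of the ID genes, they were TLX2, CYC1 and DGKQ, at 0.269, 0.353 and 0.444 kb.

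**Figure D2:**
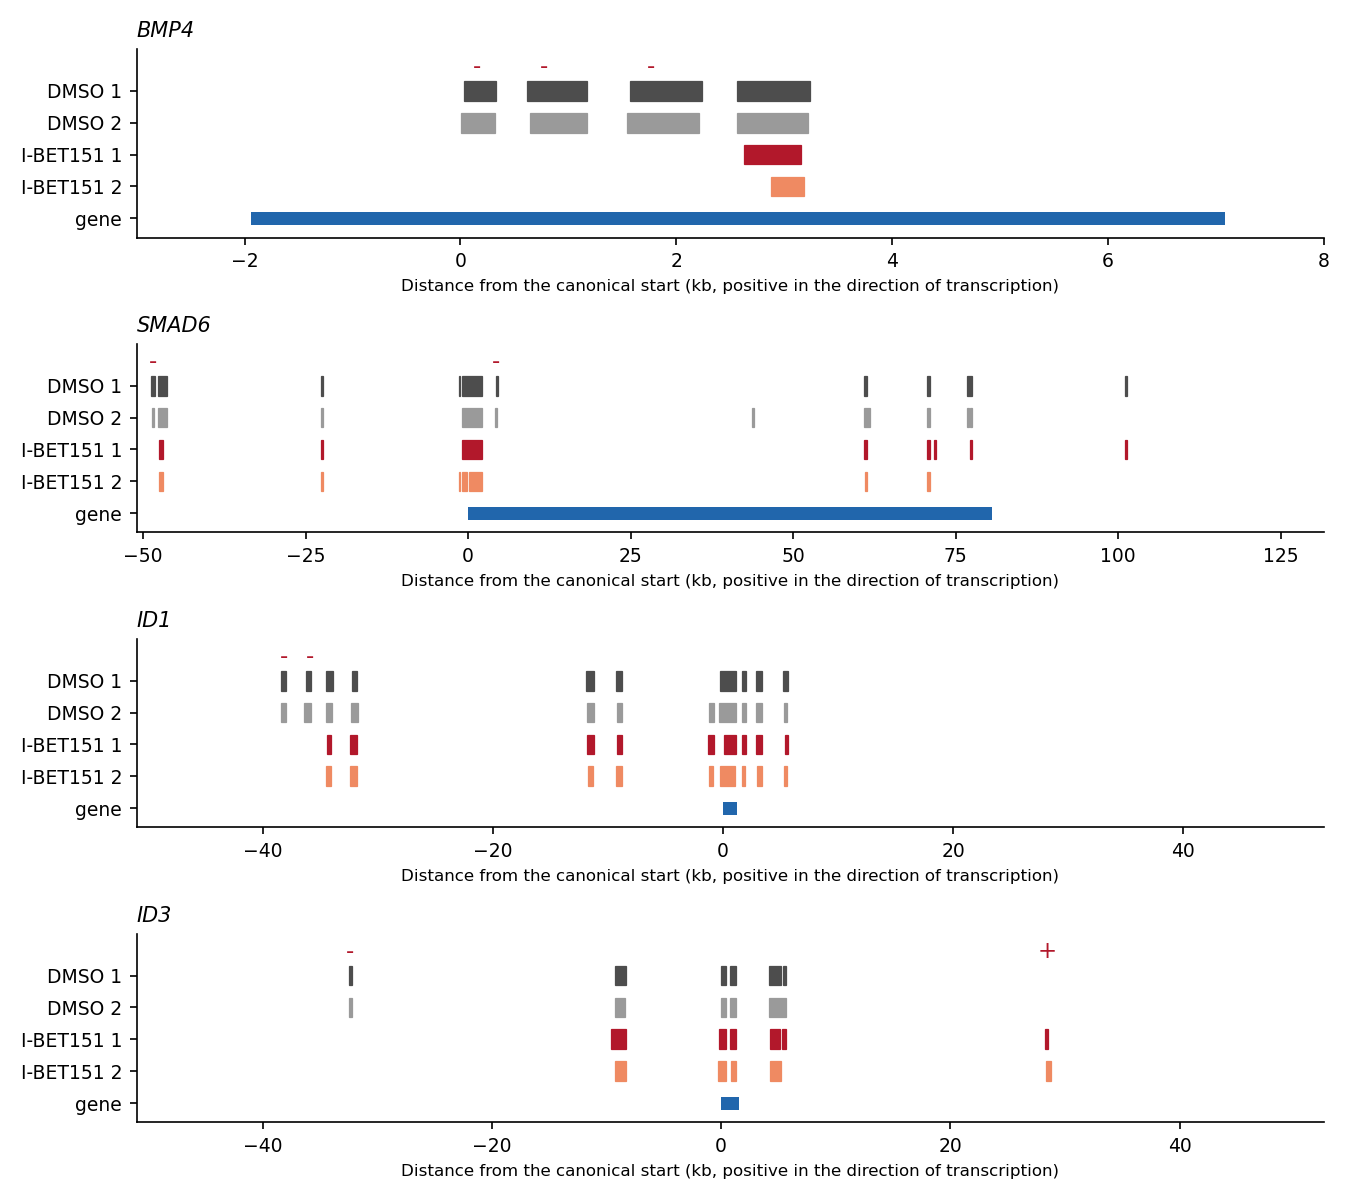
H3K27ac peaks of each library (rows) at BMP4, SMAD6, ID1 and ID3, by distance in kb from the canonical start, with the gene body in blue; a minus sign marks regions called in both DMSO libraries only and a plus sign the region called in both I-BET151 libraries only. The 3 regions nearest to the BMP4 start are missing in both I-BET151 rows, while those around the ID1 and ID3 starts are present in all 4 rows except 1.1 kb upstream of ID1 in DMSO replicate 1.

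The feedback inhibitors were lower too in covered length over their windows. At BAMBI, covered length was 1.74 and 1.31 kb in DMSO against 1.14 and 1.19 kb in I-BET151. Of all genes with a peak, 26.9% had a more negative difference than BAMBI. Part of the gap came from a region 44.9 kb downstream that was called in DMSO replicate 1 only: within 10 kb the values were 1.38 and 1.31 kb against 1.14 and 1.19 kb, so that the difference went from −0.368 to −0.187 kb. Without DMSO replicate 1 it was −0.153 kb. Both BAMBI promoter regions were present in all 4 libraries and both were lower in I-BET151. The one upstream of the start, chr10:28676823-28677292, had 28.6 and 23.6 RPM in DMSO and 18.7 and 20.8 in I-BET151. Its neighbour over the start, chr10:28677525-28678435, had 36.7 and 31.1 against 27.2 and 30.5. On the fold enrichment over local input that the authors deposited, this second region was 5.36 and 4.79 against 5.15 and 5.48, and its groups overlapped.

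SMAD6 had the largest difference in kb of the 9 genes. Its window was 181 kb long, while those of the other genes with peaks were 101 to 113 kb. Its peaks covered 7.86 and 7.49 kb in DMSO against 5.92 and 4.94 kb in I-BET151 (difference −2.24 kb, exact permutation p = 0.33), and 10 peaks in each DMSO library stood against 8 and 7. Of the genes with a peak, 2.18% had a more negative difference, a share that takes no account of window length. With 10 kb either side of the gene the difference was −1.08 kb. The separation was not at the promoter: within 3 kb of a start, SMAD6 had 3.40 and 3.10 kb in DMSO against 3.08 and 3.20 kb in I-BET151, which overlapped. The broad promoter region, chr15:66701219-66704380, was 1 peak in 3 libraries but 2 peaks in I-BET151 replicate 2. With the peak of lowest p in each library its height was 46.6 and 40.7 RPM in DMSO against 38.4 and 40.2, which is lower, and its deposited fold was 5.71 and 6.98 against 7.36 and 8.32. With the tallest peak instead, whose summit in I-BET151 replicate 2 is near those of the other libraries, that library had 41.8 RPM and a fold of 6.19, and the groups overlapped in both measures. The call at the SMAD6 promoter thus rests on which of these peaks is taken.

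Of the 12 SMAD6 regions 2 were lost, both away from the promoter. That at chr15:66653517-66654080, 48.5 kb upstream in the noncoding gene LINC01169, had 10.2 and 8.13 RPM in DMSO at a fold of 12.8 and 8.18. The other, chr15:66706376-66706789, lies 4.31 kb downstream of the start, in an exon of a noncoding SMAD6 transcript, with 11.7 and 13.4 RPM. Next to the first, a region 47.0 kb upstream was called in every library, at 22.4 and 21.8 RPM in DMSO and 14.3 and 18.3 in I-BET151, and its covered length went from 1322 and 1307 bp to 671 and 719 bp. An intronic region 61.1 kb downstream was also lower (16.7 and 17.4 against 12.9 and 12.4 RPM). Conversely, the intronic region 70.8 kb downstream was higher, with 13.8 and 12.7 in DMSO and 16.4 and 15.1 in I-BET151. The other 5 regions were called in 1, 2 or 3 libraries without separating the groups.

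The 4 ID genes together were lower in covered length, with 15.9 and 15.9 kb in DMSO against 15.03 and 14.2 kb in I-BET151, groups that did not overlap. Within 3 kb of their starts the sums overlapped (8.33 and 8.73 kb against 8.58 and 8.55 kb, exact permutation p = 1). The difference over the windows was −1.24 kb (exact permutation p = 0.33), and ID1 alone accounted for −1.32 kb.

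ID1 lies at chr20:31605283-31606515. Its window was covered by 5.93 and 6.11 kb of peaks in DMSO against 4.72 and 4.69 kb in I-BET151 (exact permutation p = 0.33), and 6.11% of genes had a more negative difference. Of its 11 regions, 8 were called in all 4 libraries. The 2 lost regions were far upstream in HM13, a neighbouring gene for a signal peptide peptidase: chr20:31566835-31567286, 38.2 kb upstream of ID1 and 908 bp from an HM13 start, and chr20:31568844-31569484, 35.9 kb upstream. They had 11.7 and 11.1, and 9.92 and 9.96 RPM in DMSO. Without peaks whose summit was within 3 kb of a start of another gene only, the difference at ID1 was −0.907 kb, and within 10 kb of ID1 it was −0.091 kb, with overlapping groups (3.22 and 3.35 kb against 3.14 and 3.25 kb).

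At the ID1 gene itself, chr20:31604968-31606381 was among the strongest regions of the 9 loci. It had 42.7 and 35.9 RPM in DMSO and 35.7 and 39.6 in I-BET151, which overlapped, as did its deposited fold. Its covered length was lower, at 1412 and 1396 bp in DMSO against 1063 and 1354 bp in I-BET151. Its peaks also ranked lower in the I-BET151 lists, in the top 8.12 and 14.9%, against 1.93 and 1.57% in DMSO. Their −log10 p overlapped, at 99.6 and 87.67 in DMSO against 87.96 and 68.4 in I-BET151. The region with the 15-base match, 3.14 kb downstream, had 36.7 and 32.3 RPM against 32.1 and 32.4, and overlapped in height as well. A region 1.14 kb upstream of the start, chr20:31603975-31604528, was called in both I-BET151 libraries, at 14.4 and 13.8 RPM, and in DMSO replicate 2 only, at 9.86. Its DMSO peak ranked at 99.9% of its list and was left out when −log10 q of at least 5 or lists of equal length were required, and the region then counted as gained. In the 2 regions 34.2 and 11.5 kb upstream the height was lower in I-BET151 (23.7 and 23.99 against 13.0 and 16.5 RPM, and 17.2 and 17.5 against 11.6 and 8.46). It was also lower, by a small margin, 9.06 kb upstream (22.7 and 23.3 against 22.3 and 21.9 RPM). In the region 32.1 kb upstream it was higher, with 18.3 and 19.9 against 23.2 and 26.1. By the deposited fold, the regions 34.2 and 32.1 kb upstream kept these calls, while those 11.5 and 9.06 kb upstream overlapped. The regions 34.2 and 32.1 kb upstream lie within HM13, whose start is the nearest coding start to both.

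ID2 and ID3 carried the tallest regions of the 9 loci in every library. The ID2 window was covered by 4.00 and 3.95 kb in DMSO against 3.87 and 3.92 kb in I-BET151, a difference of −0.08 kb between means. Of all genes with a peak, 51.8% had a more negative difference than ID2. With windows of 100 kb the ID2 groups overlapped (7.61 and 7.45 against 7.45 and 7.39 kb). All 3 of its regions were called in all 4 libraries, and none overlapped the canonical start. The middle region, chr2:8677995-8679643, 2.70 kb upstream of that start and over the start of a longer transcript, ranked in the top 0.22 to 0.72% of every list. It had 54.8 and 44.9 RPM in DMSO and 57.0 and 56.5 in I-BET151. Both treated libraries were thus higher, but DMSO replicate 1 lay closer to them than to its own replicate, and without DMSO replicate 2 the difference went from 6.89 to 1.96 RPM. In whole reads the summit had 436 and 442 in DMSO and 442 and 454 in I-BET151, so that the groups touched. DMSO replicate 2 had the highest estimated depth, 9.84 M ChIP reads. Duplicate removal caps the reads at tall summits, and its part in these heights was not tested. The other regions, 5.01 kb upstream and 3.60 kb downstream, overlapped between groups in RPM. By the deposited fold the middle region overlapped (11.2 and 14.3 in DMSO against 13.4 and 13.8 in I-BET151). The region 3.60 kb downstream was then lower (9.50 and 8.24 against 8.00 and 7.88).

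ID3 had 4 regions called in all 4 libraries, 1 lost and 1 gained region. Covered length was 3.52 and 3.58 kb in DMSO against 4.04 and 3.45 kb in I-BET151, which overlapped. Within 3 kb of a start it was higher, with 0.979 and 0.998 kb against 1.24 and 1.13 kb. The peaks over the start, chr1:23559038-23559751, were wider in I-BET151 (427 and 480 bp against 696 and 653 bp), although their summits of 29.02 and 28.1 RPM in DMSO overlapped the 26.8 and 30.5 in I-BET151. The flanking regions at 4.90 kb downstream, which holds 1 of the 15-base matches (53.8 and 44.4 against 58.3 and 56.7) and 8.99 kb upstream (46.0 and 37.3 against 50.2 and 49.0 RPM) were higher in I-BET151. As at ID2, DMSO replicate 1 lay closer to the treated libraries than to its own replicate in both, and without DMSO replicate 2 their differences went from 8.41 to 3.74 RPM and from 7.95 to 3.61 RPM. Their whole reads also lay close together, at 428 and 437 against 452 and 456, and at 366 and 367 against 389 and 394. That at 1.03 kb downstream, with the other match, was lower (35.4 and 35.5 against 30.2 and 31.5 RPM). By the deposited fold, all of these flanking regions overlapped between groups. The lost region, chr1:23591680-23591992, lay 32.4 kb upstream near MDS2 with 10.4 and 9.76 RPM. The gained region, chr1:23530732-23531220, lay 28.5 kb downstream and 190 bp from the start of E2F2, a cell cycle transcription factor gene, with 16.8 and 18.7 RPM in I-BET151. It would have been called in the DMSO lists at 60.8 to 65.3% of that height.

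ID4 had 2 regions, each with a 15-base match and each called in all 4 libraries. Covered length was 2.42 and 2.22 kb in DMSO against 2.40 and 2.16 kb in I-BET151, which overlapped. The region over its start, chr6:19837433-19839224, was lower in I-BET151, at 39.4 and 37.1 against 29.5 and 33.8 RPM. The region 32.3 kb upstream, chr6:19804643-19805326, was higher, at 37.6 and 36.0 against 43.3 and 42.1. Heights in RPM at the same gene thus differed in opposite directions. By the deposited fold, the region over the start was 5.76 and 8.43 in DMSO against 7.77 and 6.52 in I-BET151, and overlapped. The upstream region was higher by fold too, at 7.68 and 6.57 against 7.80 and 11.3.

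**Figure D3:**
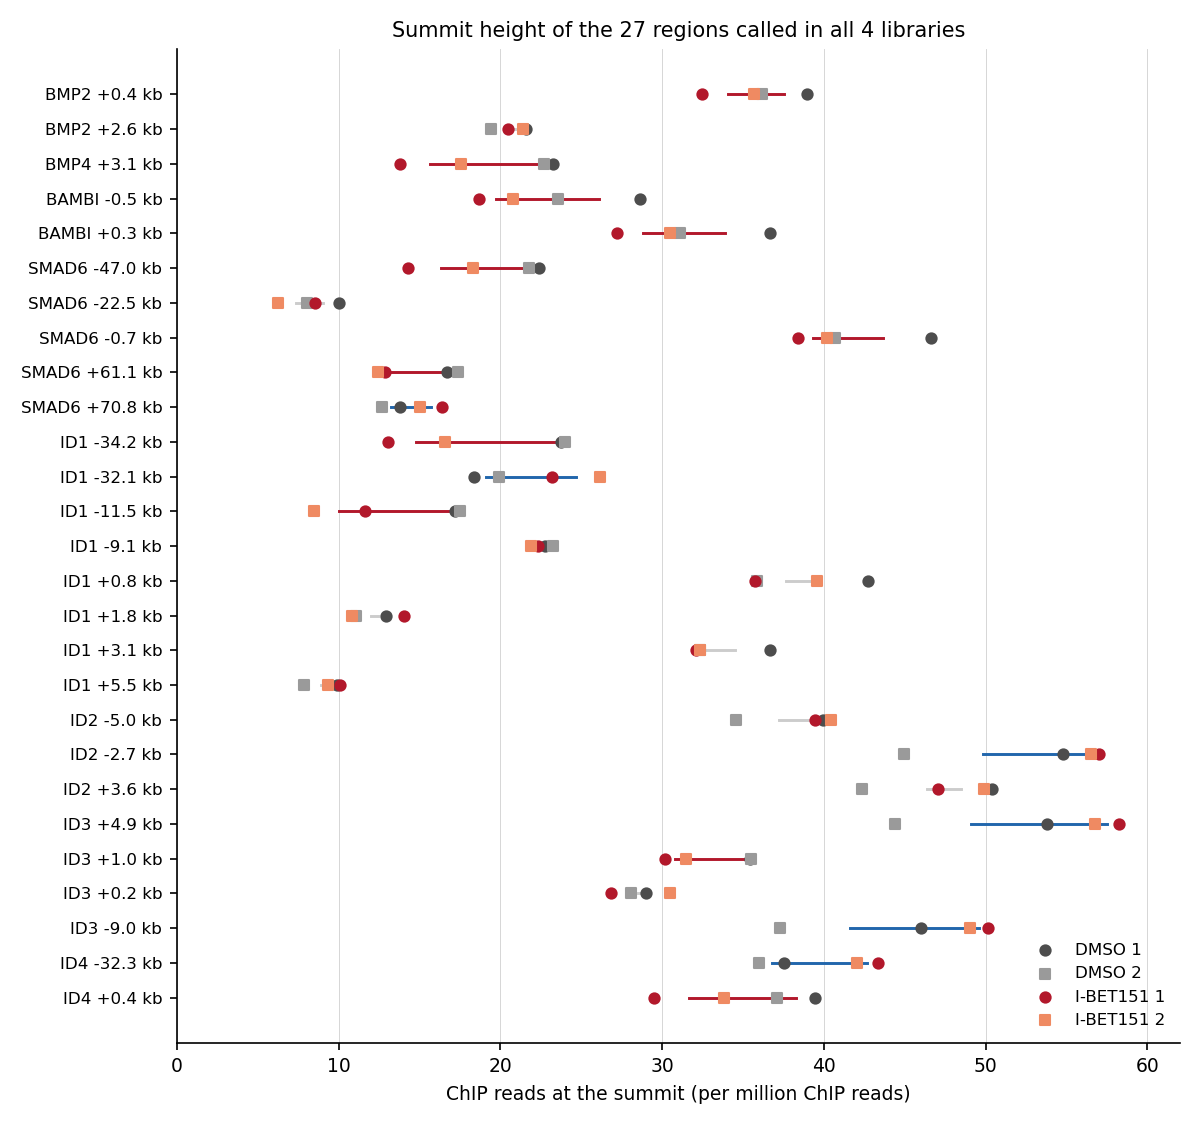
Summit height, in ChIP reads per M of the ChIP reads of the library (RPM), of the 27 member regions called in all 4 libraries, named by gene and distance from the canonical start; each point is 1 library, and the line joins the group means (red, both I-BET151 libraries lower; blue, both higher; grey, overlapping), from the peak of lowest p in each region. Heights at BMP4 and BAMBI shift to the left, and those at the ID genes shift in either direction.

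Across the 43 regions, 27 were called in all 4 libraries, 8 were lost, 1 was gained and 7 had other patterns. The lost regions were 18.6% of the member regions, against 8.6% of all regions in the series, and the gained region was 2.33% against 2.81%. BMP4 held 3 of the lost regions, SMAD6 and ID1 2 each and ID3 1. Those of BMP4 are neighbours, and merging peaks within 500 bp made BMP4 1 region that was not lost, leaving 4 lost regions in all. With so few regions, the share lost is not read as differing from the background. They were low: their mean DMSO heights ran from 9.15 to 16.9 RPM (median 12.0), compared with a median of 28.5 over the 27 regions called in all libraries. Lost regions would have been called in the I-BET151 lists at 29.6 to 69.4% of their mean DMSO height, at the input level they had in DMSO.

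For the 27 shared regions, heights were lower in 12, higher in 6 and overlapping in 9. The background was 31.3% lower and 29.8% higher among 10313 such regions of the series. At BMP2, BMP4, BAMBI and SMAD6, 7 of 10 were lower (6 with the tallest peak of each region) and 1 was higher, with a median of 83.3% of the DMSO height. SMAD6 gave 5 of these 10. By the deposited fold, the BMP2 region in the coding exon and the SMAD6 promoter region were higher. The region 22.5 kb upstream of SMAD6 was then lower. Those over the BAMBI start and 61.1 and 70.8 kb downstream of the SMAD6 start overlapped. At the ID genes 5 of 17 were lower in RPM and 5 higher, with a median of 104%. ID2 and ID3 gave 1 and 2 of the higher ones, at tall summits whose whole reads lay close together in all libraries. By the deposited fold, the ID regions 34.2 kb upstream of ID1 and 3.60 kb downstream of ID2 were lower. Those 32.1 kb upstream and 3.14 kb downstream of ID1 and 32.3 kb upstream of ID4 were then higher, and the other ID regions overlapped. Of the 6 regions with the 15-base match, 2 were lower in RPM, 3 higher and 1 overlapped. By fold, those downstream of ID1 and upstream of ID4 were higher and the others overlapped. When heights were scaled to the median of the shared regions in each library, 11 of the 27 were lower and 9 higher, and by the deposited fold 7 were lower and 5 higher.

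The rest of the pathway was read from 6 lists of 57 genes, of which 42 had a peak in the window. Of these, 17 were lower, 9 higher and 16 overlapping, with a median difference of −0.00925 kb, beside the 44.4% lower and 12.5% higher of all genes. Among 5 other ligand genes with a peak, 1 was lower and 1 higher, and among 9 receptor genes 2 were lower and 4 higher. Of 10 antagonist genes 4 were lower and 1 higher. SMADs and their regulators had 6 lower and 2 higher of 10, other targets 3 lower and 1 higher of 5, and the 3 E proteins that ID proteins bind 1 lower. Windows of 50 kb also take in peaks of neighbouring genes, so that values within 3 kb of the gene's own starts are given beside them.

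The 4 largest differences downward were at FSTL3, SKI, GATA2 and TCF3. FSTL3, a secreted antagonist of activins and BMPs, had 7.64 and 8.47 kb in DMSO against 4.41 and 4.19 kb in I-BET151, and 1.61 and 1.82 against 0.744 and 0.783 kb near its starts. SKI, a SMAD corepressor, had 11.02 and 10.9 kb against 8.90 and 9.16 kb, with 2.83 and 3.19 against 1.81 and 1.84 kb near its starts. GATA2, a transcription factor gene, had 1.88 and 1.41 kb in DMSO against 0.265 and 0.375 kb in I-BET151, all within 3 kb of its starts. At TCF3, an E protein gene, the window had 7.59 and 7.48 kb against 6.59 and 6.57 kb, while near its own starts the length was 2.19 and 2.18 kb against 2.204 and 2.21 kb.

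Upward, the 4 largest were at TBX2, BMPR1B, BMP6 and ACVRL1. TBX2, a T-box factor gene, had 4.90 and 4.90 kb in DMSO against 6.99 and 6.92 kb in I-BET151, with 3.02 and 3.28 against 4.28 and 4.21 kb near its starts. BMPR1B, a type I BMP receptor gene, had 0.465 and 0.580 against 1.305 and 1.31 kb, all near its starts. The BMP6 window had 0.954 and 0.931 against 1.42 and 1.39 kb, and that of ACVRL1, another type I receptor gene, 1.13 and 1.29 against 1.63 and 1.56 kb. Neither BMP6 nor ACVRL1 had a peak within 3 kb of a start in any library.

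**Figure D4:**
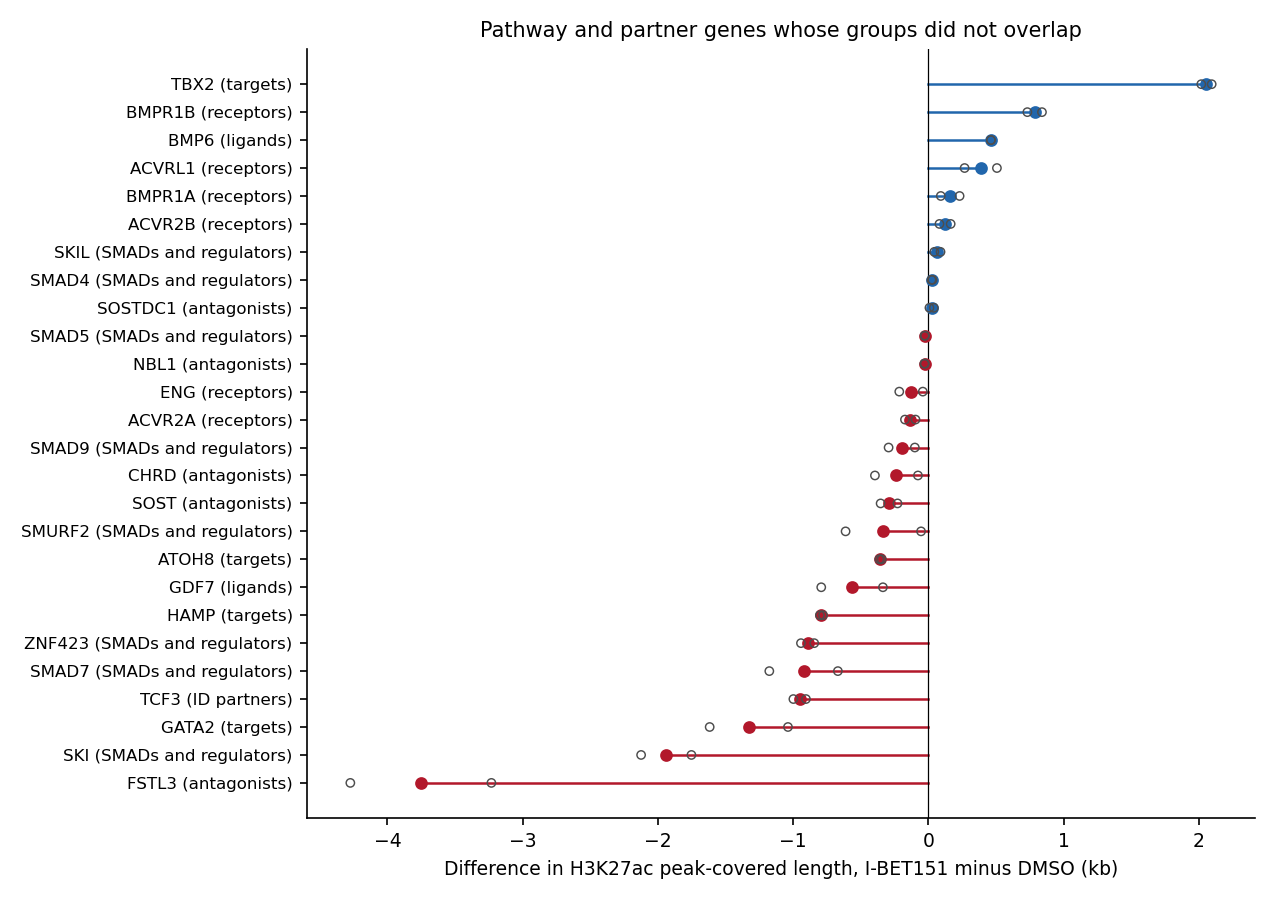
Difference in peak-covered length (kb, I-BET151 minus DMSO) in the windows of the 26 pathway and partner genes whose groups did not overlap; filled points are differences of group means and open points those of the same-numbered pairs. The 17 genes to the left of 0 reach −3.75 kb at FSTL3, and the 9 to the right reach 2.06 kb at TBX2.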

How the data were processed

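H3K27ac ChIP-seq was analysed in 4 libraries of PPs, and 4 input libraries entered only through the authors' peak calls. According to the study's methods and the submitters' processing notes, the authors aligned reads to hg38 with Bowtie2 2.2.5, removed duplicates and mitochondrial reads, and called peaks per library with MACS2 2.1.2 at its default settings. As deposited, each list row holds the peak's interval and summit, a score (not used), the fold enrichment as a ratio over local input, and −log10 of the p- and q-values. The lowest deposited −log10 q was 1.304 to 1.36. A fixed threshold drops weak peaks in shallow libraries, and duplicate removal caps peak height.

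Whole reads at each summit and the local input level were solved from fold (pseudocount of 1) and p for over 99.9% of peaks. Library depth is an estimate that needed further assumptions. It was derived from the genome-wide input level with an assumed genome of 2.7e+09 bp. The shortest peak of each list (247 to 272 bp) stood for the fragment length. An error in this estimate would shift all RPM heights of a library alike, which can alter lower and higher calls. The solver was tested only on values simulated with the same equations, which checks the inversion but neither the depth estimate nor the peak-caller model. Height is ChIP reads at the summit per M of the library's ChIP reads (RPM). Where a library had several peaks in a region, the most significant gave its height. Depth limits the detection of weak peaks, and heights carry counting error of their own.

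Genes, starts and exons were from GENCODE release 44. The covered length per window and library was tested by exact permutation (two-sided, all 6 assignments of libraries). RefSeq promoter sequences and hg38 were searched for motifs. The search over whole regions was added after promoters and summits had been searched. The 9 genes and all lists were chosen with earlier results of these data known. Named pathway genes are, in each direction, the 4 with the largest difference among those whose groups did not overlap, and nearest genes are the 3 closest by Euclidean distance. In place of the strongest peak near a start, heights are given per merged region, since that peak was not the same region in every library. Alternatives covered other windows, thresholds, equal lists of 12312 peaks, merging rules, scalings, left-out libraries and a replicate block. Same-numbered replicates did not deviate together (correlation over gene windows 0.109, over region calls 0.0118). Python 3, numpy, pandas and scipy were used.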

Additional observations from a re-analysis of the deposited data

Results flagged for a closer look

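The input libraries, which have no peak list of their own, stood above their genome-wide level at the peaks of these genes. The median local input at the member peaks was 35.9 and 30.2 times the genome-wide input in DMSO replicates 1 and 2, and 35.0 and 44.7 times in I-BET151 replicates 1 and 2. The same ratio over all peaks of a library was 37.8 to 42.6. Fold enrichment divides by this local input, and its part in the differences between heights and folds was not tested.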

How the results depend on the processing

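The summed difference in covered length at the 9 loci and those at BMP4, BAMBI, SMAD6, ID1 and ID2 over the windows kept their direction under every alternative tried, although groups overlapped at ID1 with 10 kb and at ID2 with 100 kb windows. The sum ranged from −8.11 kb (100 kb windows) to −3.18 kb (10 kb windows). Without single replicates it ran from −6.68 to −4.63 kb. With same-numbered libraries as a replicate block the differences were −5.65 kb for the sum and −2.07 kb for the promoters (exact sign-flip permutation p = 0.5 each, the smallest that 2 pairs allow), and the block turned no direction. No alternative could pass 0.05.

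Of 424 alternative values, 379 kept their direction or stayed within 1.5 times the reported count, 23 reversed, and 22 left a difference of 0 or moved a count further. Covered length turned at ID3 with 100 kb windows (−0.242 kb) and without peaks at starts of other genes (−0.16 kb), and BMP7 gave −0.0425 kb within 100 kb. Near starts it turned at BMP2 (0.0155 kb) and ID2 (0.001 kb) within 1 kb, and at ID1 with −log10 q of at least 5 or with equal lists (0.214 kb each). The peak number at ID1 differed by 0.5 within 10 kb. By fold, height turned at BAMBI (0.243), ID4 (0.0497) and SMAD6 (1.49, or 0.426 at the tallest peak of the region), and the strongest peak near a start, an alternative chosen after seeing the data, gave −5.12 RPM at ID3. The tallest peak of each region, also chosen after seeing the data, left 11 of the 27 regions lower and 6 higher, and ended the call at the SMAD6 promoter (−3.52 RPM). The cause was not tested.

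Leaving out single replicates moved covered length from −0.077 to 0.011 kb at BMP2 (also near its starts), −0.096 to 0.493 kb at ID3, −0.163 to 0.0785 kb at ID4, and, near starts, −0.262 to 0.041 kb at SMAD6 and −0.207 to 0.168 kb at ID1. Promoter height ran from −5.07 to 1.76 RPM at ID1 and −1.72 to 1.95 RPM at ID3. It kept its sign at SMAD6 (−4.33 RPM, but −1.35 without DMSO replicate 1 and −7.30 without DMSO replicate 2), BAMBI (−5.05 RPM, but −2.26 and −7.84), ID2 (6.89 RPM, but 11.8 and 1.96) and BMP2 (−3.47 RPM, but −2.09 without DMSO replicate 1 and −1.85 without I-BET151 replicate 1). Of the other regions, that upstream of BAMBI went from −6.38 to −3.84 RPM without DMSO replicate 1, and that 47.0 kb upstream of SMAD6 from −5.76 to −3.77 RPM without I-BET151 replicate 1. Near starts, covered length at ID2 went from −0.057 to −0.038 kb without DMSO replicate 1, to −0.026 kb without I-BET151 replicate 1 and to −0.088 kb without I-BET151 replicate 2, and that at ID4 from −0.081 to −0.053 kb without I-BET151 replicate 2. Counts of lower genes ran from 5 to 8 (8 without I-BET151 replicate 1) and of higher genes from 0 to 1 (1 without I-BET151 replicate 2), and near starts higher genes from 1 to 2 (2 without DMSO replicate 2). Higher regions ran from 6 to 10 (10 without DMSO replicate 1), and gained regions from 1 to 2 (2 without DMSO or I-BET151 replicate 2).

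Other counts moved as follows. Within 1 kb of starts 2 genes were lower. Higher genes near starts were 0 within 5 kb, and 2 with −log10 q of at least 5 or equal lists, settings that also gave 2 gained regions each. By fold 7 shared regions were lower. Merging peaks within 500 bp left 4 lost regions, since the 3 of BMP4 and 1 of SMAD6 joined regions called in all 4 libraries. With 10 kb windows 10 list genes were lower. Depth, estimated at 7.76 to 9.84 M reads, limits calls of low peaks.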
